A study of Mus musculus with 31 samples.

Results

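The AP-1 genes encode the basic leucine zipper (bZIP) proteins that pair up to form the transcription factor AP-1. The 10 genes described here, of 21911 protein-coding genes on chromosomes 1 to 19, X and Y, were listed by name: Fos, Fosb, Fosl1 and Fosl2 (Fos subunits), Jun, Junb and Jund (Jun subunits), and Atf3, Batf and Batf3 (ATF and BATF subunits). All 10 were found in the GENCODE annotation. The data are ATAC-seq peaks of 1 library from 50000 parental NIH-3T3 cells, a mouse fibroblast line grown in medium with fetal bovine serum. These cells carry no transcription factor (TF) transgene, and their labels list no doxycycline. The study's methods give doxycycline for NIH-3T3 cells in ATAC-seq without setting the parental cells apart, so whether this library received it is uncertain. The other 30 samples of the series are NIH-3T3 cells given 500 ng/ml of doxycycline for 48 h, with overexpression of 13 TFs in 2 replicates each (26 samples) or with the transactivator rtTA3G alone (4 samples). They were not analysed here.

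AP-1 is a dimer whose leucine zippers hold the subunits together while the adjoining basic regions grip the DNA. Fos proteins do not pair with each other and need a Jun partner, whereas Jun proteins also pair among themselves. In fibroblasts the factor is known for its fast response to serum, growth factors and stress, and its sites are common in fibroblast enhancers.

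In ATAC-seq the Tn5 transposase cuts where nucleosomes leave DNA free, so the fragments sequenced mark accessible chromatin. The list holds 63456 peaks. Each has a fold enrichment, which is the number of fragments over the summit divided by the number expected locally (1 added to both), and a −log10 q for that excess. The fragments themselves were solved from the listed values, with a median of 29 per summit and a minimum of 10. With 1 library there is no replicate error. The 95% intervals below are exact Poisson (for fragments) or exact binomial (for shares) and cover counting error only. In bulk cells, a site open in fewer cells and a site less open in each cell cannot be told apart.

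The fibroblast label was checked on marker genes. All 12 fibroblast markers had a peak within 1 kb of a transcript start, with the highest fold enrichment at Fn1 (10.5), Twist1 (10.1) and Col1a2 (7.79) and the lowest at Thy1 (3.41), Prrx1 (3.65) and Col5a1 (5.55). The share over all protein-coding genes was 53.7%. Such a peak was found at 3 of 8 epithelial markers, Krt14 (7.07), Grhl2 (5.40) and Krt8 (3.25), but not at Cdh1, Epcam, Esrp1, Krt18 or Krt5. The value of Krt14 was above the fibroblast median of 6.47. A promoter peak was found at 3 of 4 endothelial markers (not at Kdr), with 12.8 at Cdh5, 8.40 at Pecam1 and 3.58 at Tek, at 1 of 4 neural markers, Gfap at 4.26 (not at Rbfox3, Sox10 or Tubb3) and at 0 of 4 embryonic stem cell markers. The part of other cell types in the values below was not tested.

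Of the 10 AP-1 genes, 8 had at least 1 peak within 1 kb of an annotated start (called a promoter peak here), against 53.7% of all protein-coding genes. These were all Fos subunits, all Jun subunits and Atf3. Batf and Batf3 had none. At least 2 promoter peaks were present at 5 of the 10 genes (Fosb, Fosl1, Junb, Jund and Atf3), against 13.0% of coding genes. Of the 27 annotated starts of the AP-1 genes, 18 lay within 1 kb of a peak and 14 under a peak, against 45.1% and 37.3% of all annotated starts of coding genes. In and up to 50 kb around the genes there were 117 different peaks, of which 14 were promoter peaks of the AP-1 genes, 38 lay within 1 kb of a start of other genes only, and 65 were distal, more than 1 kb from every annotated start.

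**Figure D1:**
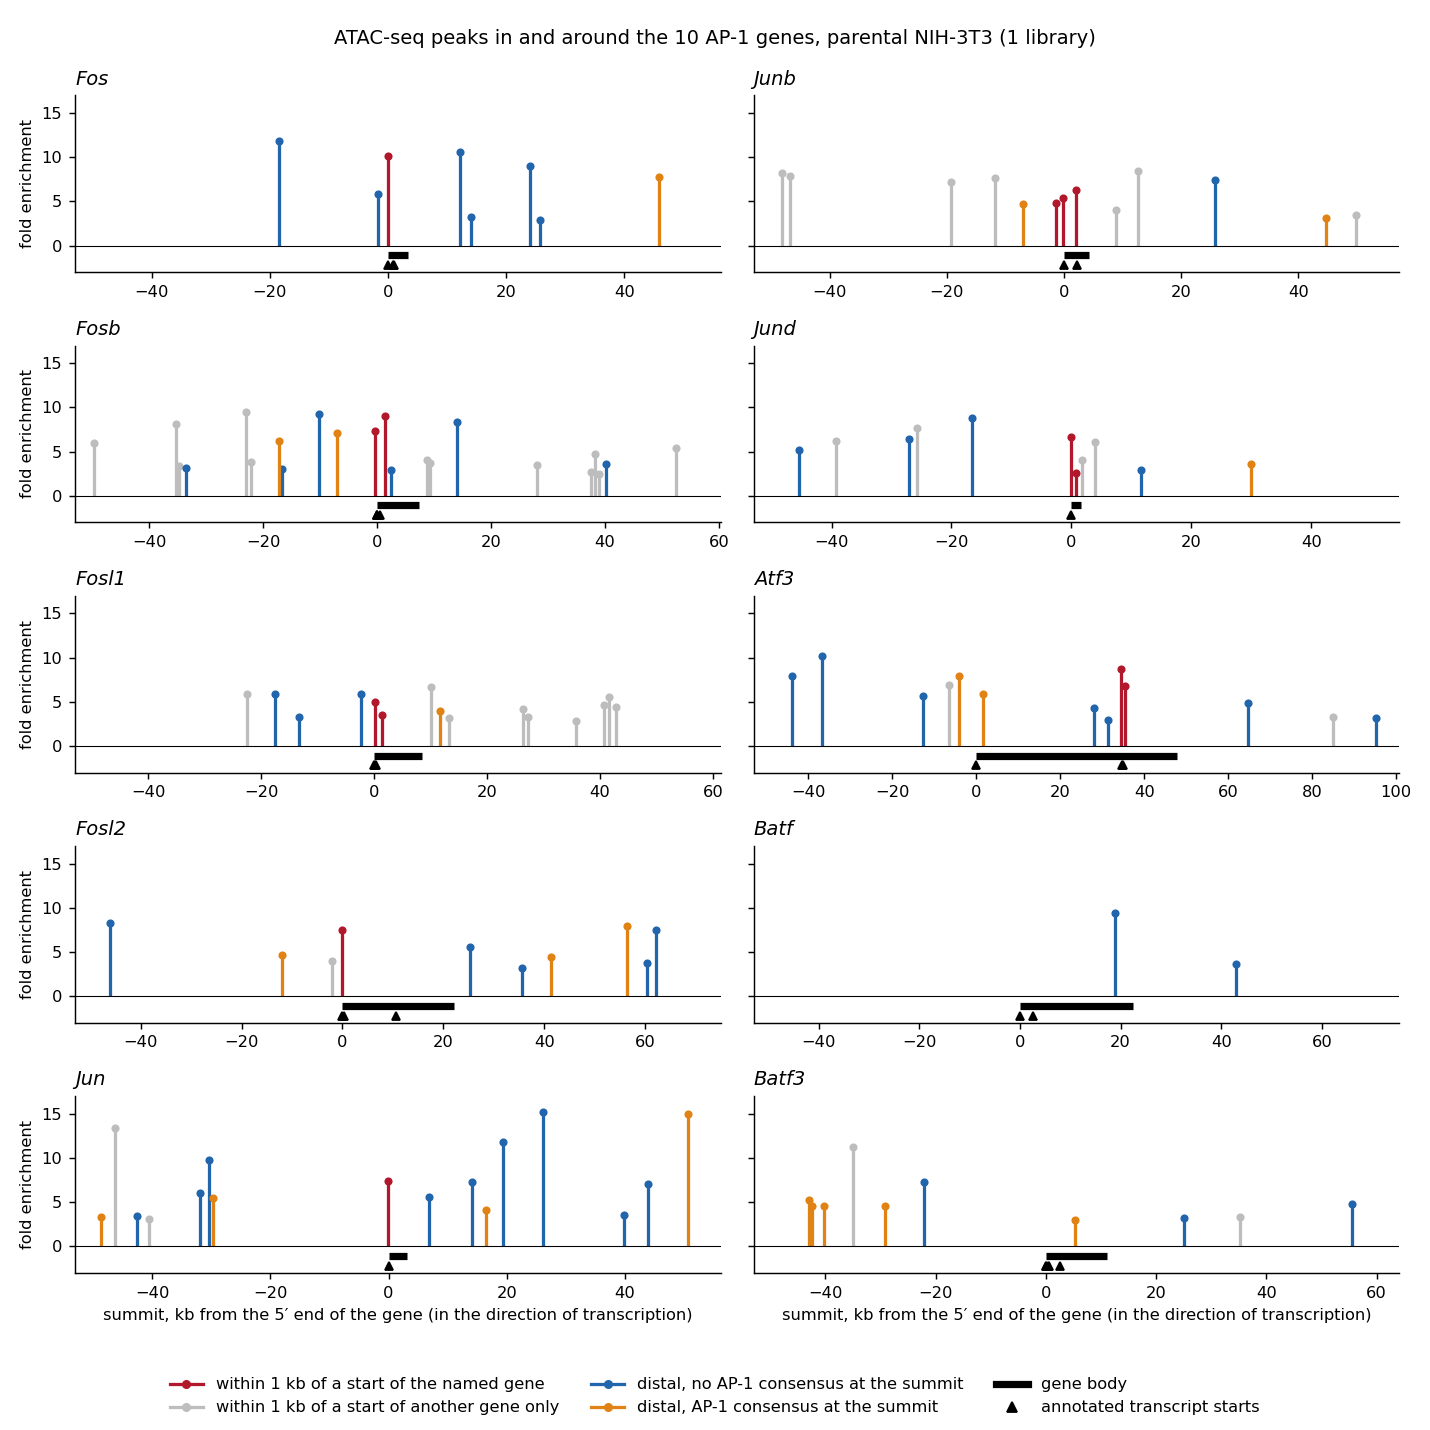
Each panel shows 1 AP-1 gene with the 50 kb to either side. The x axis is the distance of a peak's summit from the 5′ end of the gene in kb, the height of a stick is the fold enrichment, and colours separate promoter peaks of the gene, peaks at starts of other genes, and distal peaks with or without the AP-1 consensus. Fos and Jun each have 1 promoter peak amid several high distal peaks, and Batf has 2 peaks in its whole window.

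The AP-1 consensus searched for was TGACTCA on either strand (TGAGTCA when read from the other side), within 50 bases of a summit. It was present at 26.4% of the 47192 distal peaks of the list. In promoters, the RefSeq sequences from 250 bases before to 50 after the start (build GRCm38.p6) were searched on both strands for TGACTCA, for the cAMP response element TGACGTCA, for its variant TGACATCA, for CCAAT, for TATAAA and for the CArG box bound by serum response factor. A CArG box can contain TATAAA or CCAAT, and apart from that none of these sequences contains another whole. Of 21263 coding promoters, 4.66% held TGACTCA, 2.23% TGACGTCA, 3.66% TGACATCA, 38.2% CCAAT, 12.6% TATAAA and 1.52% a CArG box. Promoter sequences were matched by symbol for 9 of the 10 genes, without Fosl1. A match describes the letters in the window and is not evidence of binding. Printed below are the promoters with a match and, for each gene that has one, the summit window of its distal peak with the consensus and the highest fold enrichment, with all matches in capitals and positions counted from 1 at the first transcribed base.

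Fos encodes c-Fos, the subunit first known as a viral oncogene product and a classic immediate early gene of serum-treated fibroblasts. Its single promoter peak (chr12:85473497-85474314, mm10) had a −log10 q of 49.4 and a fold of 10.1, the highest fold among the AP-1 genes. The summit lay 60 bp before the start, under 76 fragments (95% interval 59.9 to 95.1) where 6.64 were expected. The peak covered all 300 bases of the promoter sequence, which holds TATAAA from position −33.
Fos promoter, chr12:85473640-85473939, plus strand: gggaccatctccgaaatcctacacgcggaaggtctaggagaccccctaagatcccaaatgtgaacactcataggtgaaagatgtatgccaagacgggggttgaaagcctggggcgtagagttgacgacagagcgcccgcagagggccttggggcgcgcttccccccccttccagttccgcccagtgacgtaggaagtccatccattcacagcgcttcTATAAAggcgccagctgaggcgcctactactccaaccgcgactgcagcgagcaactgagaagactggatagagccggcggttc
No other gene had a start under or within 1 kb of any peak in the Fos window, and the other 7 peaks were all distal and intergenic. The highest of them lay 18.5 kb upstream (chr12:85455022-85455985), with a fold enrichment of 11.8 and 95 fragments, which was above the promoter's fold. The next was 12.2 kb downstream of the start with 10.5. The AP-1 consensus stood at 1 of the 7 summits, the farthest one, 45.9 kb downstream, with a fold enrichment of 7.78 and 39 fragments. This window held the consensus at 2 places, on either strand.
Fos distal summit, chr12:85519698-85519798, plus strand: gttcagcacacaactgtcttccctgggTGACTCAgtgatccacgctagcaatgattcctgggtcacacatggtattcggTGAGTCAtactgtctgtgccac

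Fosb encodes FosB, a close relative of c-Fos that neurons also make as a shortened, long-lived splice form. It had 2 promoter peaks. That at the 5′ end (chr7:19310029-19310478) had a fold enrichment of 7.28 and 70 fragments, with its summit 290 bp before the start. The higher one (chr7:19307813-19308876) reached a fold of 9.05 and 91 fragments (73.3 to 112) at a −log10 q of 54.1, and its summit lay in an exon, 938 bp after the nearest annotated start. The Fosb window was crowded, with 12 peaks at starts of other genes, among them Vasp, Rtn2 and Ercc1, beside 8 distal peaks. The highest distal peak (chr7:19319838-19320292), 10.1 kb upstream in an exon of D830036C21Rik, had a fold enrichment of 9.25 and 75 fragments, and no consensus. The consensus stood at 2 of the 8 distal summits, and the higher of these lay 6.94 kb upstream between genes with 7.14 and 58 fragments.
Fosb distal summit, chr7:19316944-19317044, plus strand: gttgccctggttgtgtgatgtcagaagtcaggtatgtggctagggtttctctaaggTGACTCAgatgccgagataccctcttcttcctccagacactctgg

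Fosl1 encodes Fra-1, a Fos-related subunit without the strong activation domain of c-Fos. Its promoter was the least open of the 8. The higher of its 2 promoter peaks (chr19:5447595-5447945) had 37 fragments (26.1 to 51), a fold of 4.97 and a −log10 q of 13.7, with the summit 29 bp before the nearest start. With a fold enrichment of at least 5 required, Fosl1 no longer had a promoter peak. The lower one, 3.48 in the gene's intron, was the only 1 of the 14 promoter peaks with the AP-1 consensus at its summit, and among all 16264 peaks within 1 kb of a start that share was 8.15%. The 4 distal peaks were modest, the highest (chr19:5445005-5445252) with 5.88 and 41 fragments at 2.39 kb upstream. The consensus was at 1 of them, 11.3 kb after the nearest start, with 3.95 and 37 fragments.
Fosl1 distal summit, chr19:5459147-5459247, plus strand: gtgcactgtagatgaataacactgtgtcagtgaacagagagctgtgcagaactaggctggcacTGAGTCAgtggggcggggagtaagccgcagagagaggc

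Fosl2 encodes Fra-2, the other Fos-related subunit of this kind. Its promoter peak (chr5:32135059-32136464) was broad, 1406 bp, and had 89 fragments (71.5 to 110), a fold of 7.47 and a −log10 q of 45.8, with the summit 173 bp before the 5′ end. It covered the first and second annotated starts, and the remaining start, 10.7 kb into the gene, had its nearest peak 10.1 kb away. The gene body held no distal peak, and all 8 distal peaks lay between genes. The highest (chr5:32089238-32089791) stood 46.1 kb upstream with 8.30 and 41 fragments. The consensus was at 3 of the 8 summits, and the highest of these, 56.4 kb after the 5′ end and beyond the 3′ end, had 7.90 and 45 fragments.
Fosl2 distal summit, chr5:32192158-32192258, plus strand: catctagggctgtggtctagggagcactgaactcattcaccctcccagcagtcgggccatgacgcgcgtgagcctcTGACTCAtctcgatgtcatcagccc

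Jun encodes c-Jun, the subunit that Jun N-terminal kinases phosphorylate and that can act on its own gene. It had the most fragments at its promoter and the most distal peaks of the 10 genes. The promoter peak (chr4:95051481-95053517) was 2037 bp wide, at the 99.7th percentile of coding genes with a promoter peak, and its summit, 131 bp before the start, lay under 156 fragments (132 to 182). Since 20.3 fragments were expected locally, the fold was 7.36, while the −log10 q of 77.6 was the highest among the AP-1 promoters. The same peak also lay at starts of the gene Junos, so the openness of these promoters cannot be told apart. All 300 bases of the Jun promoter sequence were in the peak. They hold CCAAT from position −65 and TGACATCA from −45.
Jun promoter, chr4:95052173-95052472, minus strand: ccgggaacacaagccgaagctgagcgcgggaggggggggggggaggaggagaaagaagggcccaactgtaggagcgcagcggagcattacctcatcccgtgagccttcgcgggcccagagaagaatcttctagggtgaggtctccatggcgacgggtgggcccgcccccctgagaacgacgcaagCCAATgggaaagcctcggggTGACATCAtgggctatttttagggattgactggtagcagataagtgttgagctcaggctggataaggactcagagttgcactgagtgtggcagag
The 13 distal peaks of Jun placed it at the 97.2th percentile of coding genes. Of the 2 highest distal peaks, 1 lay 26.1 kb after the start in an intron of the noncoding gene Gm12694 (chr4:95025884-95026635), with a fold enrichment of 15.2 and 113 fragments, and held no consensus. The other lay 50.6 kb after the start in the same gene's intron (chr4:95001214-95001900), with 110 fragments, a fold of 15 and a −log10 q of 89.5, and held the consensus at 2 places within 50 bases of the summit. Both were above the Jun promoter by fold and below it by fragments. The consensus was at 4 of the 13 distal summits.
Jun distal summit, chr4:95001533-95001633, plus strand: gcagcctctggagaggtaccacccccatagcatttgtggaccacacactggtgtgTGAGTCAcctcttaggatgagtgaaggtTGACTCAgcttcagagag
A further peak with the consensus at its summit was not counted as distal because a Junos start lies within 1 kb. It was singled out after its values were seen. It lay 46.2 kb upstream of Jun (chr4:95098157-95098794), with a fold enrichment of 13.4 and 164 fragments (140 to 191), as many as at the Jun promoter within counting error.

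Junb encodes JunB, a weaker activator than c-Jun that can hold c-Jun back. It had 3 promoter peaks, the most of the 10 genes. The highest (chr8:84976206-84976765) was not at the 5′ end but inside the gene, 74 bp before a second annotated start, with 82 fragments (65.2 to 102), a fold of 6.33 and a −log10 q of 36.8. The peak at the 5′ end had 5.38 and 71 fragments (55.5 to 89.6), and that 1378 bp before the 5′ end had 4.80 and 63 fragments (48.4 to 80.6). The intervals of all 3 overlapped. The promoter sequence holds CCAAT from position −36 and TATAAA from position 1 of the RefSeq start, which lies 30 bp before the GENCODE start.
Junb promoter, chr8:84978699-84978998, minus strand: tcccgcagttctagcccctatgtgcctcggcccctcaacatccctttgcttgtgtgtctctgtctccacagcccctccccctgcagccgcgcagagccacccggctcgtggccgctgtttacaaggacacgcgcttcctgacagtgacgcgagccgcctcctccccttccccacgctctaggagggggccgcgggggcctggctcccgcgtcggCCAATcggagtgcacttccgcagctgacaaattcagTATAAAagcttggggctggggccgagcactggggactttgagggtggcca
The window of Junb held 7 peaks at starts of other genes but 3 distal peaks, which equals the median of coding genes. The highest distal peak (chr8:84952746-84953281) lay in an exon of Rtbdn, 25.7 kb after the 5′ end, with 7.37 and 36 fragments and no consensus. The other 2 held the consensus, and the higher of them stood 6.99 kb upstream with 4.69 and 44 fragments, again with 2 matches.
Junb distal summit, chr8:84985655-84985755, plus strand: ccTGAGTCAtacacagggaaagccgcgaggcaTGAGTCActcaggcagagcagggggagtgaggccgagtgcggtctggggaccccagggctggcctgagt

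Jund encodes JunD, the Jun protein that resting cells also make at a steady level. The peak at its start (chr8:70698427-70699369) had 62 fragments (47.5 to 79.5), a fold of 6.60 and a −log10 q of 29.3, with the summit 138 bp before the start. A second, low peak of 2.60 and 24 fragments lay in the exon. Both also lay within 1 kb of starts of the noncoding gene Gm11175. The RefSeq start of Jund is 1210 bp upstream of the GENCODE start, and the promoter sequence around it overlapped no peak. Of the 5 distal peaks, the highest (chr8:70682084-70682764) was 16.6 kb upstream with 8.78 and 58 fragments. The consensus was at 1 summit, in an intron of Pde4c 29.9 kb downstream, with 3.57 and 16 fragments, the lowest of the summits printed here.
Jund distal summit, chr8:70728830-70728930, plus strand: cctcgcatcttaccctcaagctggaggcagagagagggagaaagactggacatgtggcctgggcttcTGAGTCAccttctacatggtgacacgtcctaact

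Atf3 encodes a stress-induced partner of Jun proteins that often represses. Its start farthest upstream had no peak within 1 kb, while the starts 34.7 and 34.9 kb further into the gene lay under the higher of its 2 promoter peaks. That peak (chr1:191183070-191183664) had 74 fragments (58.1 to 92.9), a fold of 8.74 and a −log10 q of 43.5, and the other, 611 bp after the nearest start, had 6.82 and 57 fragments. Counted at its 5′ end alone, Atf3 had no promoter peak. The promoter sequence at the open start was wholly in the peak and holds CCAAT on the other strand, printed as ATTGG, from position 6.
Atf3 promoter, chr1:191183284-191183583, minus strand: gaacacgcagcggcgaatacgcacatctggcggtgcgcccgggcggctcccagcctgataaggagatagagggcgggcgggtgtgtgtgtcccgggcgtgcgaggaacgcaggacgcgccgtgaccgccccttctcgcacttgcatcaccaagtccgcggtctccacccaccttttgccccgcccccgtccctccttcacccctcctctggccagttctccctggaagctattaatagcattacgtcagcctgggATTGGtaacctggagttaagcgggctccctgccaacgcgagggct
Of its 9 distal peaks, the highest (chr1:191254496-191254878) stood 36.6 kb upstream of the 5′ end with 10.1 and 55 fragments. The consensus was at 2 summits on either side of the closed upstream start. The higher was 4.12 kb before that start with 7.97 and 60 fragments, and the other was 1.75 kb after it with 5.91 and 26 fragments.
Atf3 distal summit, chr1:191222111-191222211, plus strand: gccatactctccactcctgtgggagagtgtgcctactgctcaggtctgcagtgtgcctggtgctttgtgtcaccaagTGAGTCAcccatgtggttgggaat

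Batf and Batf3 encode short bZIP proteins without an activation domain, known from lymphocytes and dendritic cells. Neither gene had a promoter peak. The nearest peak to a Batf start was 16 kb away, inside an intron (chr12:85705279-85705838), with 51 fragments (38.0 to 67.1), a −log10 q of 32.8 and a fold of 9.42, which was above the promoter fold of 7 of the 8 open AP-1 genes, while by fragments it was below 7 of the 8. It was 1 of only 2 peaks in the Batf window, neither with the consensus. The nearest peak to a Batf3 start was 2.53 kb away in an intron, with 2.96 and 11 fragments, and Batf3 counted as open only when the distance was widened to 5 kb. The promoter sequences of Batf and Batf3 overlapped no peak and held none of the searched sequences. Batf3 nevertheless had 8 distal peaks, and 5 of these (62.5%) held the consensus, the largest number among the 10 genes. The highest with the consensus lay 42.9 kb upstream, in an exon of Tatdn3, with 5.21 and 21 fragments. The highest without it (chr1:191075421-191075942) lay 22.1 kb upstream in an intron of Nsl1 with 7.30 and 31 fragments. Batf3 and Atf3 are neighbours, and 2 distal peaks between them without the consensus were in the windows of both.
Batf3 distal summit, chr1:191054920-191055020, plus strand: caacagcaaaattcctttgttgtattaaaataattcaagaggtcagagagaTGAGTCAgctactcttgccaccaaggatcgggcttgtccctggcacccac

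Side by side, the 8 promoters with peaks ran from a fold of 10.1 down to 4.97, in the order Fos, Fosb, Atf3, Fosl2, Jun, Jund, Junb and Fosl1. Their median was 7.42, against 9.86 over all coding genes with a promoter peak, and Fos alone was above the latter. By fragments the order was Jun, Fosb, Fosl2, Junb, Fos, Atf3, Jund and Fosl1, with a median of 79 against 64. The 2 medians thus fell on opposite sides of those of all open coding genes. The median number of fragments expected locally was 8.86 for the AP-1 genes and 5.51 for all open coding genes, and a higher expected number lowers the fold. In the order by fragments, the interval of Jun did not overlap that of Fosb, while each of the following neighbours overlapped. The highest-fold promoter summit lay before its nearest start in 7 of 8 genes, Fosb being the exception. The share over all coding genes with a promoter peak is not given here, so this count describes the 8 genes only. None of these 8 summits held the AP-1 consensus, against 8.15% of all peaks within 1 kb of a start.

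**Figure D2:**
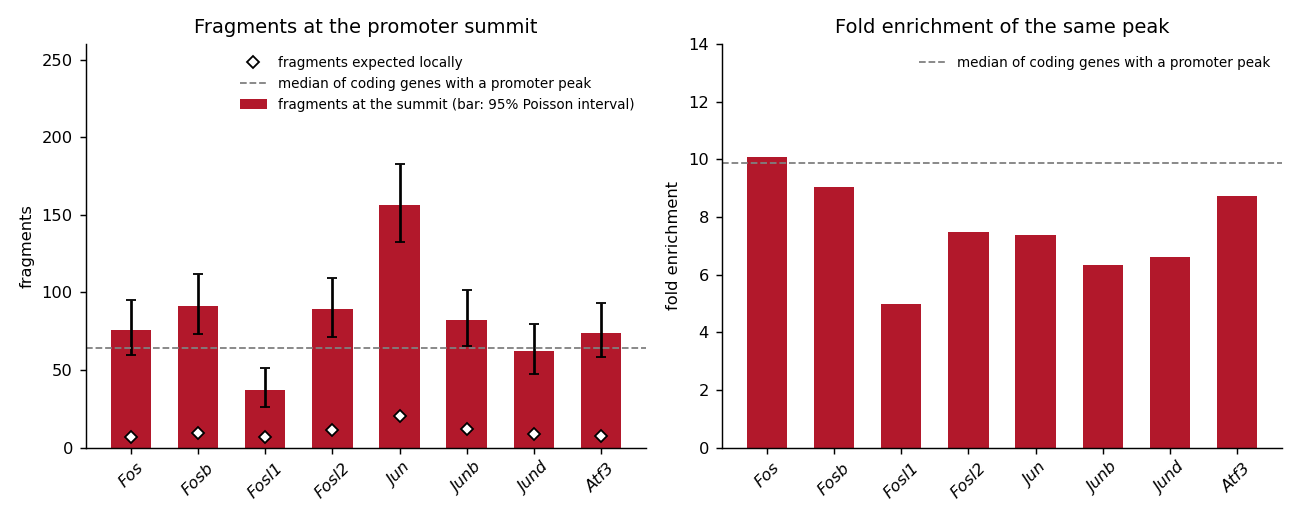
The left panel gives the fragments at the summit of the highest-fold promoter peak of each open AP-1 gene with the exact 95% Poisson interval, and diamonds mark the fragments expected locally. The right panel gives the fold enrichment of the same peaks, and dashed lines are the medians of all coding genes with a promoter peak, 64 fragments and a fold of 9.86. Jun is far above the other genes in fragments but at rank 5 in fold.

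Of the 9 promoter sequences, 0 held TGACTCA, TGACGTCA or a CArG box, against 4.66%, 2.23% and 1.52% of coding promoters. TGACATCA was in 1 (3.66% of coding promoters), TATAAA in 2 (12.6%) and CCAAT in 3 (38.2%). Bases farther than 250 before a start were not searched, and promoter peaks such as that of Fos reach farther upstream. A sequence without a match thus does not mean that the whole promoter peak lacks it. The GC content of the 9 sequences ran from 46.7% at Jund to 75.7% at Batf3. The observed over expected CpG ratio was at least 0.6 in 6 of the 9 genes, against 52.7% of the coding genes with a promoter sequence, and Jun was just below with 0.594. Jund had the lowest ratio, 0.184. Its sequence, at the RefSeq start 1210 bp upstream of the GENCODE start, overlapped no peak. The ratio, the GC content and the lack of matches of Jund thus do not describe its open start. Among coding genes with such a CpG-rich promoter, 82.7% had a promoter peak, against 26.2% of the others. Batf3, with a ratio of 0.914, was a CpG-rich promoter without a peak, whereas Batf had 0.487.

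The distal peaks lay on both sides of the genes. Counted per gene and summed, 30 lay upstream, 31 downstream and 6 in the gene bodies, but single genes were lopsided, such as Fos with 2 upstream and 5 downstream and Batf3 with 5 and 2. The summits of 31 were intergenic, 28 were in introns and 6 in exons, mostly of other genes. The same split over all distal peaks is not given here, so this one describes the 65 peaks only. The median was 7.5 distal peaks per AP-1 gene against 3 per coding gene (quartiles 1 and 5), and 8 of the 10 genes had more than that median. The lowest of these 8, Fosl1 with 4, stood at the 65.1th percentile of coding genes. Window length differs between genes, and per 100 kb the medians were 6.32 and 1.90. The 65 peaks had the same median fold as all distal peaks, 5.54, and lay under 35 against 25 fragments.

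At least 1 distal peak with the AP-1 consensus was found for 9 of the 10 genes (all but Batf), against 46.4% of coding genes. Such a count depends on the number of distal peaks per gene, with a median of 7.5 for the AP-1 genes and 3 for coding genes. It does not compare how often a single peak holds the consensus. In all, 21 of the 65 distal summits held the consensus, or 32.3% (exact 95% interval 21.2 to 45.1), and the 26.4% of all distal peaks lay inside this interval. When a fold of at least 5 was required, the share around the AP-1 genes was the lower one, 25% of 36 against 30.7%. In windows of the same size 500 bp to either side of the summits the consensus was found in 6 of 130, or 4.62%, against 1.86% beside all distal peaks. Of these 6 windows, 2 are themselves summit windows with the consensus. They belong to 2 distal peaks near Batf3 whose summits lie 500 bp apart, so each is the flanking window of the other. By family, the share was 7 of 27 around Fos subunits, 7 of 21 around Jun subunits and 7 of 17 around ATF and BATF subunits. The median fold enrichment was 4.68 (quartiles 4.17 and 6.18) for the 21 peaks with the consensus and 5.84 (3.56 and 8.33) for the 44 without. Over all distal peaks the order was the opposite, 6.31 with and 5.30 without. The quartile ranges of the AP-1 genes' peaks overlapped widely, and 1 of the 21, that 50.6 kb from Jun, was among the 2 highest of all 65. Apart from that peak, the highest fold among the 21 was 7.97, below the upper quartile of the 44.

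**Figure D3:**
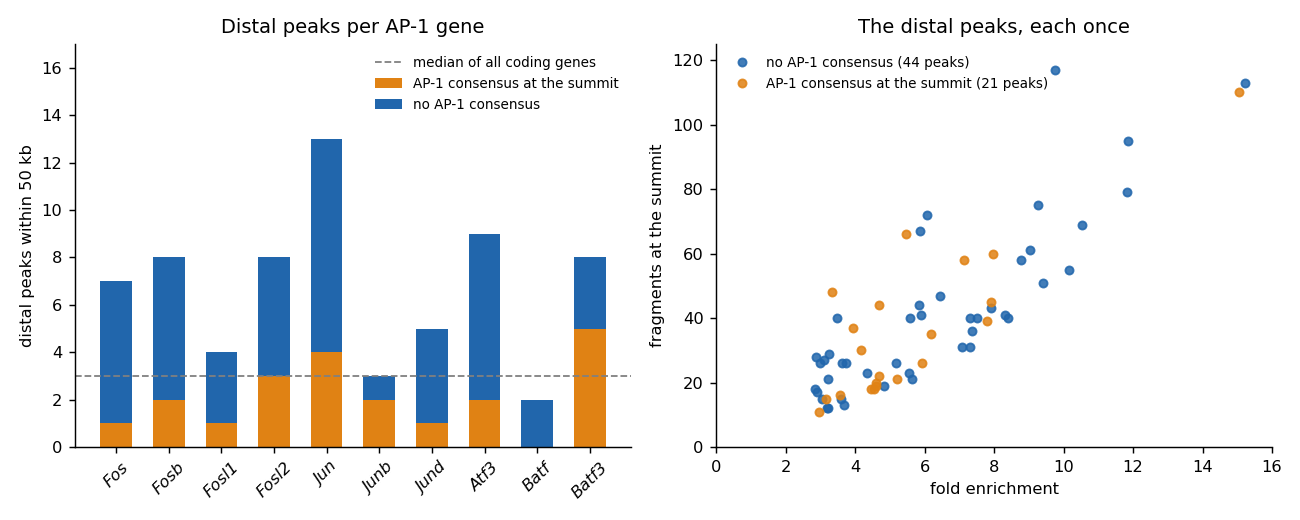
The left panel counts the distal peaks within 50 kb of each AP-1 gene, split by the AP-1 consensus at the summit, with the median of all coding genes, 3, as a dashed line. The right panel plots fold enrichment against fragments for the 65 peaks, each once. Jun has the most distal peaks and Batf3 the most with the consensus. The upper quartile of the fold is 6.18 for the 21 peaks with the consensus and 8.33 for the other 44. Apart from the peak 50.6 kb from Jun, the highest fold with the consensus is 7.97, near Atf3.

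Genes that act with AP-1 were described in the same way, and the counts of promoter peaks stand beside the 53.7% of all coding genes. Of 16 other bZIP genes whose products can pair with Fos or Jun proteins, 15 had a promoter peak, Nrl of the retina being the exception. Their median fold was 8.12 (63 fragments), the highest at Atf7 (14.1), Atf2 (12.9) and Nfe2l1 (11.7) and the lowest at Mafg (4.02), Mafk (5.36) and Jdp2 (5.56). Of 12 kinase genes upstream of AP-1, 11 had one, all but Rps6ka1. Their median of 10.9 was above that of the AP-1 genes by fold, while by fragments the medians were 81 and 79. The highest folds were at Mapk9 (13.1), Map2k1 (13.0) and Mapk8 (12.5) and the lowest at Mapk3 (5.21), Map2k2 (7.0) and Map2k7 (8.98). Mapk8 and Mapk9 encode Jun N-terminal kinases.

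All 13 genes for factors known to act on the Fos and Jun promoters had a promoter peak, with a median fold of 9.45 and a median of 62 fragments, against 64 for all open coding genes. Creb1 (15.8), Mrtfb (11.6) and Crem (11.5) were highest and Mef2c (3.15), Mef2d (3.63) and Elk3 (3.77) lowest. All 16 immediate early genes outside AP-1 had one too, with a median fold of 6.58, below that of the AP-1 genes, and a median of 71 fragments. The highest were Nr4a2 (13.5), Ier5 (11.3) and Btg2 (10.9) and the lowest Nr4a3 (4.35), Zfp36 (4.47) and Nr4a1 (4.55). They had a median of 7 distal peaks, close to the 7.5 of the AP-1 genes.

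Of 18 known AP-1 target genes, 12 (66.7%) had a promoter peak, near the 53.7% of all coding genes. The 6 without it were the matrix metalloproteinase genes Mmp3, Mmp9, Mmp10 and Mmp13, the cytokine gene Lif, and Ezr, which encodes ezrin. The median fold of the 12 was 7.57 (48 fragments), with Hmox1 (13.3), Il6 (11) and Cd44 (10.9) highest and Sphk1 (3.97), Vegfa (4.29) and Ccnd1 (4.33) lowest. The AP-1 consensus was at 31 of the 112 distal summits around the target genes, 27.7%, close to the 26.4% of all distal peaks, and was 32.3% around the AP-1 genes. In the other lists it was 38.5% around the factors that act on the Fos and Jun promoters, 32.9% around the bZIP partners, 29.6% around the other immediate early genes and 22.2% around the kinases.

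**Figure D4:**
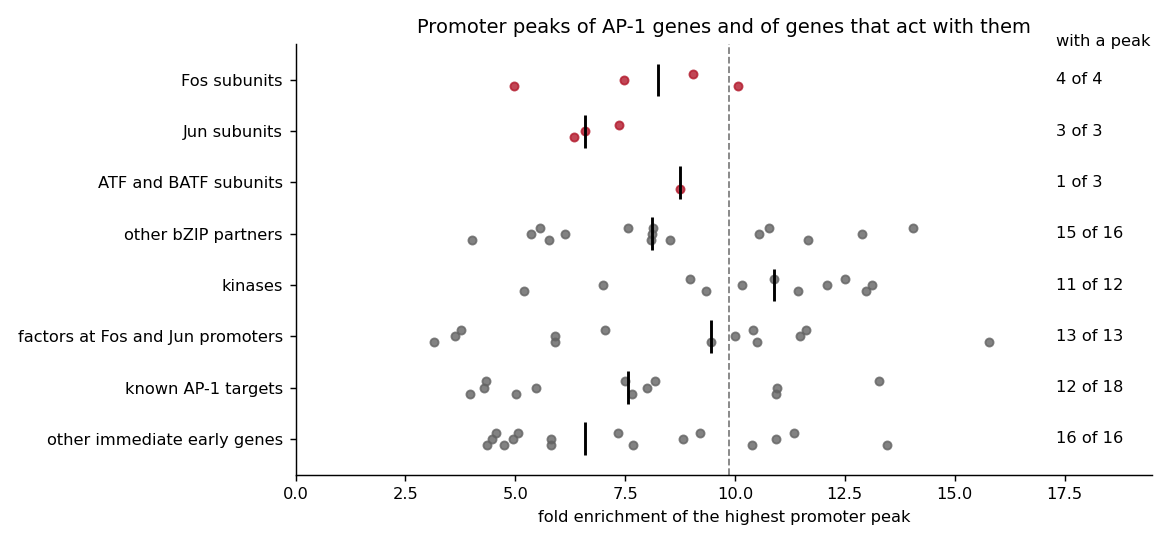
Each point is the fold enrichment of the highest promoter peak of 1 gene, with AP-1 genes in red and other lists in grey. Black bars are the medians of the lists, the dashed line is the median of all coding genes with a promoter peak (9.86), and the numbers at the right count the genes with a promoter peak. The kinases are the only list with a median above the dashed line by fold. By fragments, the medians of the kinases (81) and the other immediate early genes (71) were above the 64 of all open coding genes. So were those of the Fos subunits (82.5), the Jun subunits (82) and the ATF and BATF subunits (74, from Atf3 alone).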

How the data were processed

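The peak list of the parental NIH-3T3 library was used alone, with no groups and no tests. Per the labels and the study's methods, the authors mapped read pairs to mm10 (STAR 2.5.3a, unique reads), discarded duplicates (Picard) and ran MACS2 2.1.1.20160309 on whole fragments, and no shift of fragment ends for Tn5 is described. They deposited for each peak a fold enrichment, which is a ratio of observed to expected fragments at the summit. Poisson tests of that excess gave the deposited −log10 values, p before and q after adjustment, and the deposited score restates the −log10 q and was not used. The lowest −log10 q was 1.30. Summit fragments were computed from the fold and the −log10 p and were within 0.02 of a whole number for 99.997% of peaks. The peak list does not give the number of reads of this library, and the study's methods give a range over all samples.

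GENCODE M21 and the GRCm38.p6 sequence, both of the mm10 build, gave genes and bases, with coordinates counted from 1. For each AP-1 gene the highest-fold promoter peak, distal peak and distal peak with the consensus were named. Of the other lists, up to 5 genes without a promoter peak (alphabetically) and the 3 highest and 3 lowest by fold were to be named, and Mmp9 was added after its values were seen. A further marker list is not reported here. The members and lists were chosen with earlier results of these data known. The number of AP-1 genes with a promoter peak, their distal peaks, the share of these with the consensus and the median promoter fold were also computed with those alternatives that bear on each, among stricter thresholds (q of 0.01, q of 1e-05, fold of 5) and other distances, windows and sequences. The other lists and the promoter sequences were described at 1 setting. The versions were Python 3.11.15, pandas 2.3.3, NumPy 2.4.6, pysam 0.24.0, SciPy 1.17.1 and matplotlib 3.10.9.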

Additional observations from a re-analysis of the deposited data

How the results depend on the processing

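Of 25 values under other settings, 20 stayed within a factor of 1.5 of a count, or inside the counting interval of a share or fold. The 65 distal peaks fell to 36 with a fold enrichment of at least 5, to 34 within 20 kb and to 37 when the nearest coding start had to belong to an AP-1 gene, and rose to 107 within 100 kb, as these settings admit fewer or more peaks. The share with the AP-1 consensus was 20% within 25 bases of the summit, where all distal peaks gave 13.5%. At a fold of at least 5 the order turned, with 25% of 36 peaks around the AP-1 genes against 30.7% of all distal peaks. The 8 genes with a promoter peak became 7 at a fold of 5 (48.7% of coding genes), 7 at the 5′ end alone (48.8%) and 9 at 5 kb (62.8%). Without the window of Batf3, an alternative chosen after seeing the data, the share was 27.1% of 59 peaks. No paired analysis was possible because the values come from a single library. Low summits, such as 16 fragments near Jund, limit the precision of single peaks.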

Other observations

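Other short sequences were counted within 50 bases of the same 65 distal summits around the AP-1 genes, on both strands, and were chosen after the peaks were seen. TGTGGT, the core of sites bound by RUNX factors, was at 9 of the 65 summits (13.8%) and at 13.2% of all distal summits. CATTCC, the core of sites bound by TEAD factors, was at 4 (6.15%) against 9.52%. CCGGAA, the core of sites bound by ETS factors, was at 1 (1.54%) against 1.56%, a CArG box at 1 (1.54%) against 0.625%, and TGACGTCA at 0 against 0.206%. In the windows 500 bp to either side of the 65 summits, TGTGGT was at 6.92%, CATTCC at 6.15%, as at the summits, and CCGGAA at 4.62%, above its share at the summits. These are counts of letters, and none was tested.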
